A study of Schizosaccharomyces pombe with 25 samples.

Results

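The genes described here encode the cytosolic ribosomal proteins of the fission yeast Schizosaccharomyces pombe. They are the protein-coding genes on chromosomes I, IIc and III of the deposited annotation whose name begins with rpl, for the large subunit, or rps, for the small subunit, followed directly by a digit. The rule found 131 genes, 76 rpl and 55 rps, among 5123 protein-coding genes of the 3 chromosomes and 7015 genes of all kinds. The label was checked against the RefSeq product descriptions, which name a protein of the large or small subunit for all but rpl44 and rpl701, both described below.

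The study concerned the histone variant H2A.Z (Pht1), the remodeller Swr1 and the factor Msc1 in the assembly of CENP-A (Cnp1) on centromere DNA, and lists 25 chromatin immunoprecipitation samples in 13 groups. Sheep anti-Cnp1 serum was used in 9 samples, from msc1∆, pht1∆, swr1∆ and wt cells that carried the exchange cc2∆:cc1 or had no exchange labelled. Myc-tagged H2A.Z was precipitated in 12 samples from msc1∆, swr1∆ and wt cells, and myc-tagged Swr1 and flag-tagged Msc1 in 2 wt samples each. The files used hold the gene annotation and sequence lengths of the genome with the exchange, in which chromosome II is called IIc, and no value of any sample, so all results below describe gene structure. They are a census of 1 annotation, with no replicates and no sampling error, and differences between gene sets are described without a test.

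Each ribosome joins a small subunit, which reads the mRNA, to a large subunit, which forms peptide bonds, and most of its proteins are needed in equal amounts. Fission yeast holds many of these proteins in duplicate genes, which are among the most strongly expressed genes of growing cells. Most genes of this yeast have few, short introns. In ribosomal protein promoters of this yeast the HomolD box acts in place of a TATA box, and the HomolE box, where present, lies upstream of it.

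Several ribosomal protein genes were interrupted almost at once after the start codon. In 11 genes the first coding intron came within the first 6 coding bases, and 9 of them are shown from their start codon, since these junctions carry the finding on intron position. Capitals mark the coding bases before the intron and lower case the first bases of the intron. The sequences were read from RefSeq assembly ASM294v3 at that assembly's coordinates, 5′ to 3′ on the strand of the gene.
rpl1801 (chrII:3361817-3361840, plus strand): ATGgtatgtataatatgaatacct
rpl1802 (chrI:1285627-1285650, plus strand): ATGgtaagtaaatgtcgtaactgg
rpl22 (chrI:5314862-5314885, plus strand): ATGGTTgtaagttcgctttgctgg
rpl3801 (chrII:754652-754675, plus strand): ATGgtaagtgagataagtagaggt
rpl3802 (chrI:1097227-1097250, minus strand): ATGgtatgtgcatgcttttaaatt
rpl8 (chrII:2045495-2045518, plus strand): ATGgtaagtgacaatcgattgaaa
rps2501 (chrII:1274250-1274273, plus strand): ATGgtaagtgtggattataccatt
rps2502 (chrI:4208824-4208847, minus strand): ATGgtaagaattttaaaatgatta
rps27 (chrII:517344-517367, plus strand): ATGGTGgtatgttataaatcatca
In 9 of the 11 genes the intron follows the start codon itself, and in rpl22 and rps27 it follows the second codon. Among the genes interrupted at the start codon are both copies of rpl18 (eL18), rpl38 (eL38) and rps25 (eS25), with rpl8 (eL8), which has no second copy.

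Promoter stretches that hold both ribosomal elements are shown next, from 7 of the 10 genes with exact matches to both. In rps13, not shown, the elements are too widely spaced for a stretch of 30 bases. Capitals mark the HomolE core, CCCTACCC or its reverse GGGTAGGG, and then HomolD, CAGTCACG or its reverse CGTGACTG. Each stretch reads toward the gene.
rpl22 (chrI:5314752-5314781, plus strand): aGGGTAGGGtaaagttaaaaCGTGACTGgt
rps2502 (chrI:4208894-4208923, minus strand): taGGGTAGGGtattaagaaCAGTCACGgca
rps29 (chrII:516360-516389, plus strand): CCCTACCCtatgcctagaagagCAGTCACG
rpl1901 (chrII:4123786-4123815, minus strand): cccaaCCCTACCCtaaaCGTGACTGcccca
rpl4302 (chrII:1513797-1513826, minus strand): aCCCTACCCtattagtgaaaaCAGTCACGg
rps1501 (chrIII:798170-798199, plus strand): ttataGGGTAGGGtttaCGTGACTGtttat
rpl35a (chrIII:540849-540878, minus strand): GGGTAGGGctaacaaaaaaacCGTGACTGt
HomolE was the element farther from the gene in 10 of 10 genes, with 4 to 16 bases, at the median 11, between the elements. Both stood on the same strand in 6 of the 10.

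The last set comes from the families of 3 genes and shows the element in copies of 1 gene. Capitals mark the first 7 letters of HomolD, CAGTCAC, placed at the same point of each stretch. One member of the families, rpl1601, has no such match and is not shown.
rpl1602 (chrI:4097266-4097295, plus strand): ttcaaaaaaagCAGTCACatctttaacaac
rpl1603 (chrII:3443187-3443216, plus strand): cgtcagaaaaaCAGTCACgtttgataaaca
rpl801 (chrI:4251477-4251506, minus strand): atgaccgaaaaCAGTCACattttacaacaa
rpl802 (chrII:1726588-1726617, plus strand): ttacacaaaagCAGTCACgagtacttttcg
rpl803 (chrII:601191-601220, plus strand): ggtcgttaaagCAGTCACatgtacactgtt
rps401 (chrII:3245072-3245101, plus strand): tctatacaaagCAGTCACatcttttgacac
rps402 (chrII:1651864-1651893, minus strand): gtgctaaagagCAGTCACtgtatatcgaaa
rps403 (chrI:3399183-3399212, plus strand): gacgaaaaaggCAGTCACaattatttgctt
All 8 matches lie between 47 and 66 bases before the RefSeq gene start. The eighth letter differs between copies: it is G in rpl1603 and rpl802, T in rps402 and A in the other 5.

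The genes were spread over the 3 chromosomes nearly as other genes are. Chromosome I held 58 of them (44.3%, against 45.6% of all protein-coding genes), chromosome IIc 48 (36.6%, against 36.5%) and chromosome III 25 (19.1%, against 18%). This gave 1 gene per 96.2 kb on I, per 94.6 kb on IIc and per 98.1 kb on III. The strands held 67 and 64 genes. Large-subunit and small-subunit genes numbered 30 and 28 on I, 28 and 20 on IIc, and 18 and 7 on III.

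A centromere is taken here as the widest gap that separates neighbouring protein-coding genes on a chromosome. The ribosomal protein gene nearest to it was found on each chromosome. The nearest was rps402, a copy of the eS4 gene, 2.67 kb from that gap on IIc. Next came rpl1002 (uL16) at 6.82 kb on I, and rps1802 (uS13) at 30.9 kb on III. On IIc, the chromosome with the exchanged central core, 14 genes lay left and 34 right of the gap, against 645 and 1224 of all protein-coding genes. The genes closest to a chromosome end were rpl35, 88.8 kb from the left end of III, rps101 and rpl4101 on I at 175 and 177 kb, and rpl3201 on IIc at 187 kb from the right end. At the other ends the nearest were rpl4301, 260 kb from the left end of IIc, and rpl15, 352 kb from the right end of III.

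Members of the set stood next to each other in 8 of 5120 neighbouring pairs of protein-coding genes (0.156%), which involved 15 genes. The set holds 131 of 5123 genes, and the number of such pairs under random gene order was not worked out. None of the 8 pairs was made of paralogues. In 4 pairs the genes are transcribed away from each other: rps1602 and rpl13 with 11 bases between their annotated ends, rpl701 and rps1402 with 16, rpl35 and rpl902 with 49, and rps2 and rps20 with 485. The median over all 1401 such divergent pairs of protein-coding genes was 449 bases, so the first 3 pairs were closer than most. The convergent pair rps001 and rpl2701 had 110 bases between its genes. The tandem pairs were rps403 with rpl2102 (238 bases), rps29 with rps27 (393 bases) and rps1402 with rps1601 (921 bases). Within 2 kb there were 12 pairs, among them also rps2602 with rpl14 (1358 bases), rpl1001 with rps21 (1457 bases) and rpl701 with rps1601 (1562 bases).

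Most of these proteins had more than 1 gene. The names fell into 74 stems, 43 rpl and 31 rps, after a copy number of 2 digits was dropped. Of the 74 stems, 21 had 1 gene, 50 had 2, 2 had 3 and 1 had 4, so that 110 of the 131 genes (84%) shared a stem. Names and proteins disagreed at 2 points. The stem rpl8 joins rpl8, which encodes eL8, to rpl801, rpl802 and rpl803, which encode uL2. The product of rpl8 was 17.7% identical to theirs, while those 3 products were identical to one another. Conversely rpl35a and rpl35b, whose products were 88.9% identical, stand under separate stems, and rpl35 encodes another protein.

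Grouping by protein identity of at least 50%, chosen after the data were seen, gave 74 families, and the closest pair of families was 26.8% identical. There were 20 single genes, 51 families of 2 and 3 families of 3: rpl801, rpl802 and rpl803; rpl1601, rpl1602 and rpl1603, which encode uL13; and rps401, rps402 and rps403, which encode eS4. By this grouping 111 genes (84.7%) had a paralogue. The single genes were rpl6, rpl8, rpl13, rpl14, rpl22, rpl26, rpl29, rpl31, rpl35, rpl39, rpl42, rpl44, rps2, rps3, rps7, rps13, rps20, rps21, rps27 and rps29. RefSeq describes rpl44 by an L28e family domain.

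Copies were mostly on different chromosomes and encoded nearly the same protein. Of the 51 families of 2, 35 had their genes on different chromosomes and 16 on the same one. I, IIc and III held 44.3%, 36.6% and 19.1% of the ribosomal protein genes. Many pairs of unrelated genes would thus also be split, and that share was not worked out. I and IIc shared 17 families, IIc and III 10, and I and III 8, while 11 lay within I, 4 within IIc and 1 within III. The median protein identity was 97.2%, 34 families were at 95% or more, and 13 pairs of proteins were identical. Among the identical pairs are the products of the 2 copies of rpl11, rpl12, rpl20, rpl23, rpl41, rps14, rps16, rps18, rps22, rps23, rps28 and rps30.

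The coding bases differed more than the proteins. Over aligned codons the median identity of bases was 87.9%, with a range of 69.7% to 99.6%. Among the 13 pairs with identical proteins it still ran as low as 81.9%, in rps2801 and rps2802 (eS28). The coding sequences of these pairs differ at synonymous positions alone. The 5 most divergent pairs of proteins within families of 2 were rpl3001 and rpl3002 (eL30) at 79.5%, rps001 and rps002 (uS2) at 79.9%, rps1201 and rps1202 (eS12) at 81.8%, rpl3801 and rpl3802 (eL38) at 83.8% and rpl701 and rpl702 (uL30) at 87.6%. RefSeq calls rpl701 a subunit of RNase MRP, the enzyme that cuts ribosomal RNA precursors, with likeness to L7. In the uL13 family, rpl1603 stood apart, with 84.8% identity to rpl1601 and 86.3% to rpl1602, against 96.4% between those 2. The eS4 proteins were 98.9% to 99.6% identical.

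The deposited structures were compact. The median length from first to last base of a ribosomal protein gene was 731 bases, against 1927 bases for the other 4992 protein-coding genes. Their coding sequences were also short, with a median of 450 bases (78 to 1167) against 1161 bases. The 2518 other genes with a coding length within that range had a median gene length of 1345.5 bases and a median coding length of 705 bases. Coding bases made up 62.3% of the bases of the ribosomal protein genes, 65% of those of all other genes and 47.6% in the others of like coding length.

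**Figure D1:**
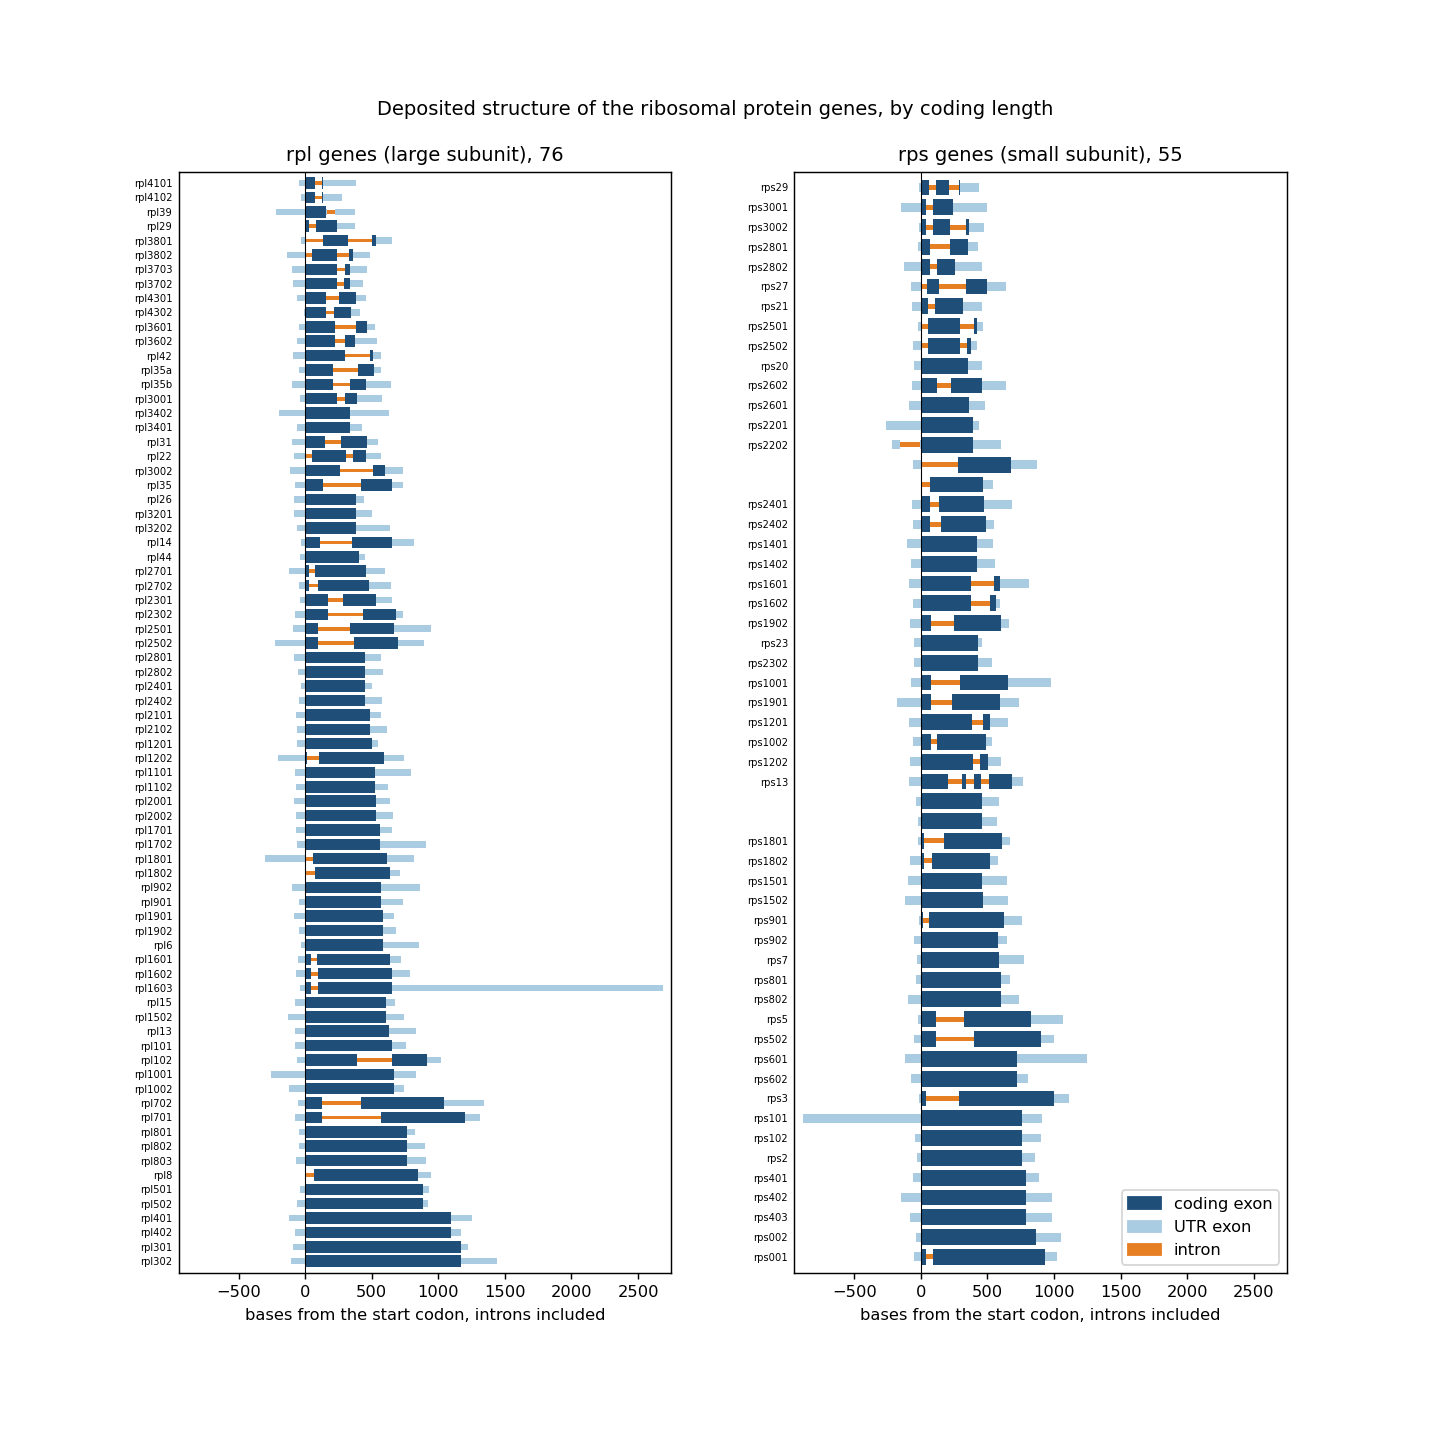
Deposited structure of all 76 rpl genes (left) and 55 rps genes (right), 1 gene per row in order of coding length (some rows carry no name), as bases from the start codon with introns included. Dark bars are coding exons, light bars UTR exons and thin orange bars introns. Most genes have 1 short intron or none, and rpl1603 (3′ UTR of 2033 bases) and rps101 (5′ UTR of 884 bases) extend beyond the others.

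The shortest gene was rpl4102 at 301 bases, with its copy rpl4101 at 428 bases. Both encode eL41, a peptide of 25 residues, from 78 coding bases. The others among the shortest were rpl29 at 374 bases, rpl4302 at 420 and rps2801 at 451. The longest was rpl1603 at 2726 bases, of which 2033 are its 3′ UTR. Then came rps101 (eS1) at 1791 bases, rpl302 (uL3) at 1545, rpl702 at 1399 and rpl701 at 1390. The largest single block differed between them, being a UTR in rpl1603 and rps101 and the coding sequence in rpl302, rpl701 and rpl702.

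The untranslated regions were short at both ends. In the deposited annotation the 5′ UTR had a median of 69 bases in the 127 ribosomal protein genes that have one (quartiles 47.5 and 93), against 180 bases in other genes and 167 bases in others of like coding length. The 3′ UTR had a median of 122 bases, against 269 and 304 bases. Large-subunit and small-subunit genes were alike, with 5′ UTR medians of 71 and 63 bases and 3′ UTR medians of 124 and 120 bases.

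**Figure D2:**
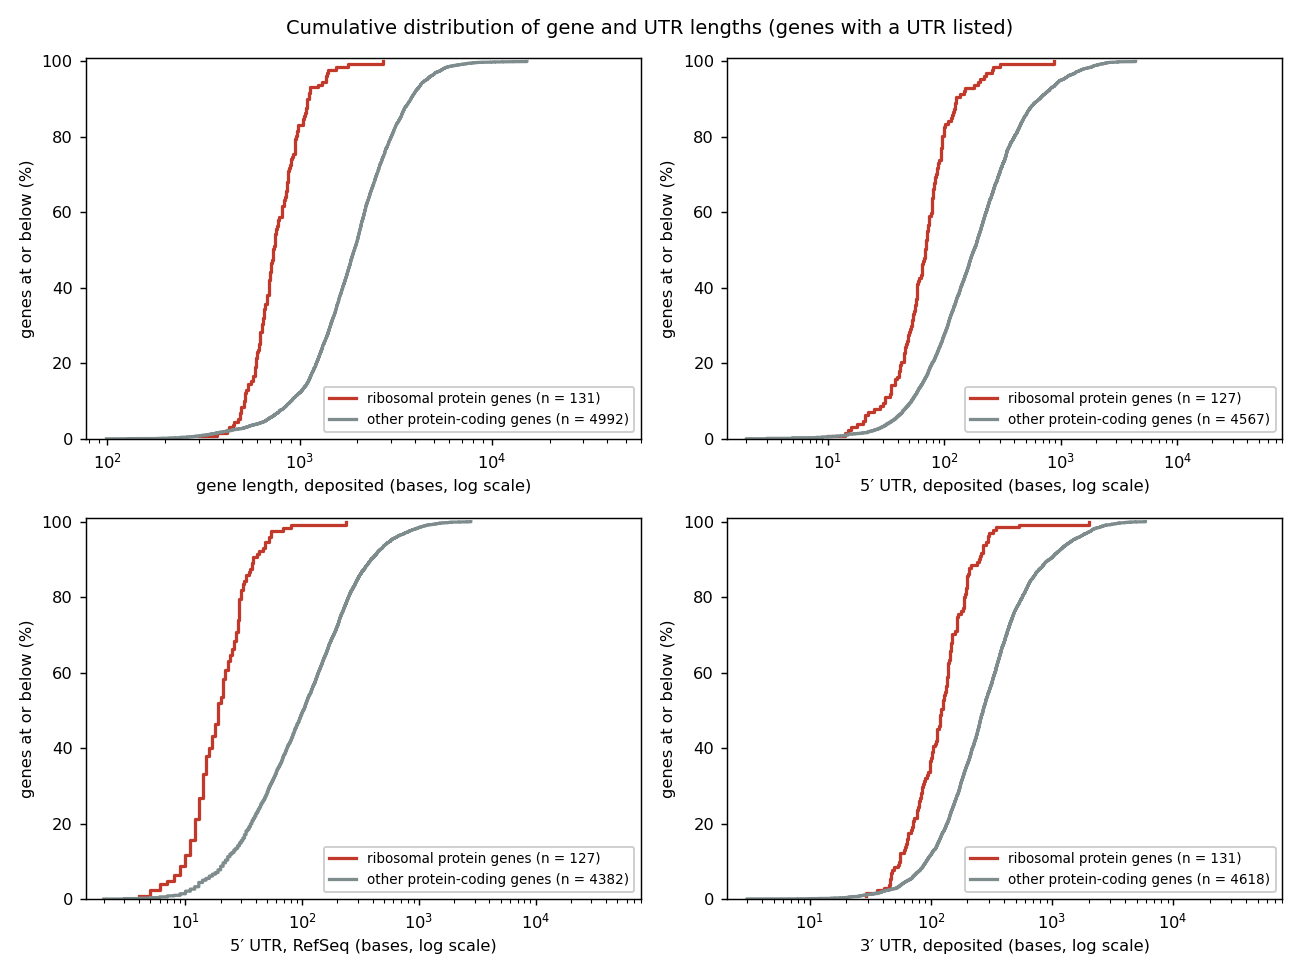
Cumulative share of genes (y axis, %) at or below a length in bases (x axis, log scale) for gene length, the 5′ UTR as deposited and in RefSeq, and the 3′ UTR. The ribosomal protein genes (red) lie left of the other protein-coding genes (grey) in all 4 panels, with medians of 731, 69, 19 and 122 bases against 1927, 180, 102 and 269 bases.

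The 5′ ends depended on the annotation. RefSeq gave a median 5′ UTR of 19 bases (quartiles 13 and 29), against 102 bases in other genes. The deposited 5′ UTR was the longer in 120 of the 131 genes (91.6%) and in 3796 of 4972 other genes (76.3%). In those genes it was longer by a median of 46.5 and 61 bases. In RefSeq 120 ribosomal protein genes (94.5% of those with a 5′ UTR) had one of 50 bases or fewer, against 28.4% of other genes. In the deposited annotation these shares were 28.3% and 9.41%. The 3′ UTR had the same length in both annotations for 130 of the 131 genes, and coding length and introns were the same for 131.

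Single genes stood far from these medians. The longest 5′ UTR was that of rps101, 884 bases as deposited and 13 bases in RefSeq, and its copy rps102 had 45. After it came rpl1801 (eL18) at 304 bases, rps2201 (uS8) at 265, rpl1001 at 259 and rpl2502 (uL23) at 230. The shortest were rpl4302 at 10 bases, rps3 (uS3, at the mRNA entry) at 14, rps901 at 15, rps29 at 16 and rps3002 at 18. The deposited annotation has no 5′ UTR for 4 genes, among them rpl8, rpl29 and rpl1802, for which RefSeq has 20, 10 and 11 bases. In 3 of those 4 genes, rpl8 and rpl1802 included, the intron follows the start codon directly.

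At the 3′ end rpl1603 was followed by rps601 (eS6, the target of S6 kinase) at 530 bases, rpl1702 at 342, rps1001 at 326 and rpl702 at 302. Its copies rpl1601 and rpl1602 had 77 and 141 bases, so the long 3′ UTR belongs to 1 copy of this family. The shortest 3′ UTRs were those of rps1602 and rps23 at 29 bases, rpl502 at 36, rps2201 at 41 and rps1002 at 45. An annotated non-coding RNA gene overlapped the opposite strand of 15 genes (11.5%), against 21.5% of other genes and 19.3% of those of like coding length. Overlap with another protein-coding gene on either strand was found for 39 genes (29.8%), against 51.4% of all protein-coding genes. The ribosomal protein genes are also shorter, with a median of 731 bases. The medians were 1927 in other genes, 1345.5 in those of like coding length and 1889 in all protein-coding genes. Overlap at equal gene length was not worked out.

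Introns were about as frequent as in other genes, but rarely more than 1 per gene. An intron was annotated in 68 of the 131 genes (51.9%), beside 48.9% of all protein-coding genes and 52.3% of the others of like coding length, so the share itself was near the background. Among the 76 rpl genes 48.7% had an intron and among the 55 rps genes 56.4%. There were 63 genes with no intron, 59 with 1, 8 with 2 and 1 with 3. Genes with 2 or more thus made up 6.87%, against 27.1% of other genes and 28.6% of those of like coding length. Of the intron-bearing genes 86.8% had exactly 1, against 44.4% of other intron-bearing genes. The gene with 3 introns was rps13 (uS15), with 103, 63 and 64 bases after coding base 202, 235 and 282. The 8 with 2 were rpl22, rpl3801, rpl3802, rps2501, rps2502, rps27, rps29 and rps3002.

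The introns were longer than those of other genes. The 78 introns had a median of 78 bases (38 to 441, quartiles 55 and 168.5), against 56 bases in other genes. Of the 78, 33 (42.3%) exceeded 100 bases, against 20.1%. In others of like coding length the median was 60 bases, and 24.4% exceeded 100 bases. The introns of other genes include annotated gaps as short as 1 base. The longest of the 78 was the 441-base intron of rpl701, in which the annotation places the small nucleolar RNA gene snoR39b of 78 bases. Such RNAs guide the modification of ribosomal RNA. It was followed by those of rpl702 (291 bases), rps502 (288) and rpl35 (284). The shortest were in rps27 (38), rpl2701 (44), rps901 (45), and rpl22 and rpl1601 (46 each). The intron of rps3, 252 bases long, holds a non-coding RNA gene of 75 bases, SPNCRNA.497.

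The first coding intron lay close to the start codon in some genes and near the end in others. Over the 66 genes with a coding intron a median of 73.5 coding bases preceded it, against 111.5 in other genes and 99 in others of like coding length. Without chromosome IIc the median was 109, against 114 in other genes and 100 in others of like coding length, so without IIc the values were close and the order against genes of like coding length was reversed. As a share of the coding length the median was 18.5%, against 11.1% in other genes and 15.9% in others of like coding length. The 11 genes with an intron within the first 6 coding bases made up 16.7%, beside 2.89% of all genes with a coding intron and 2.78% of others of like coding length. Directly after the start codon, within the first 3 coding bases, the intron stood in 9 genes (13.6%), against 37 other genes (1.59%).

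**Figure D3:**
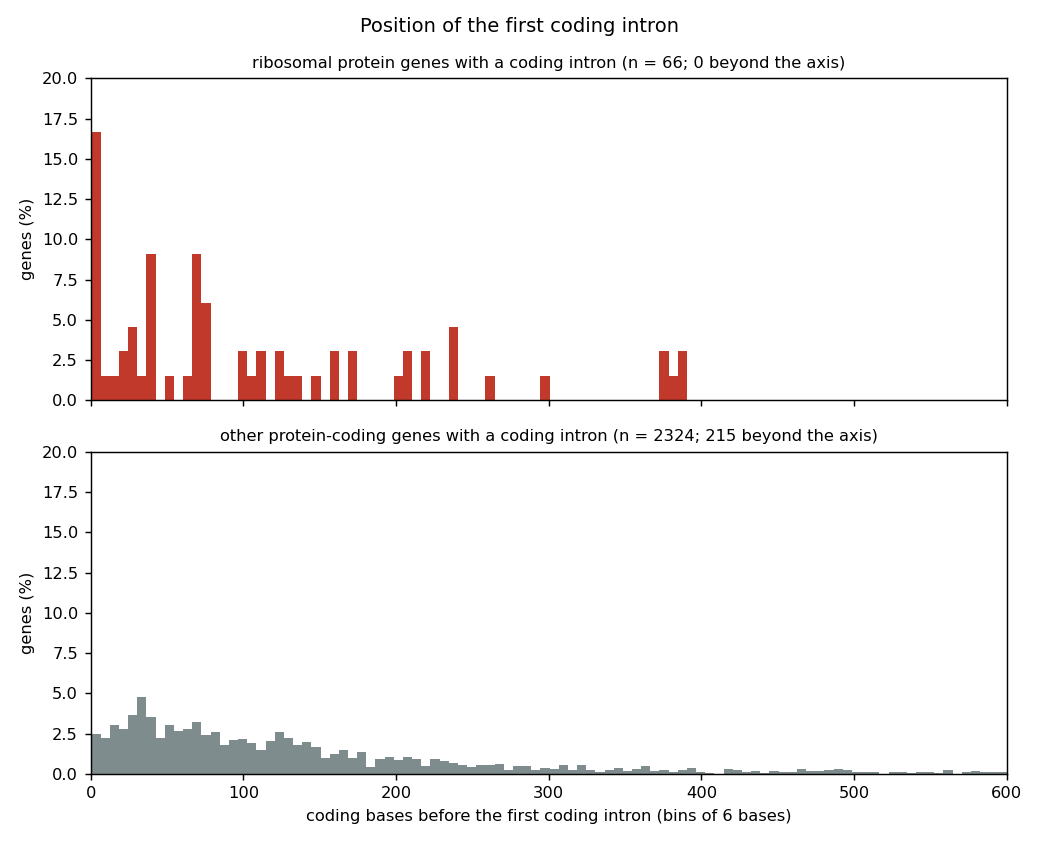
Position of the first coding intron, as coding bases before it (x axis, bins of 6 bases), in percent of the 66 ribosomal protein genes (top) and 2324 other genes (bottom) with a coding intron. The first bin holds 16.7% of the ribosomal protein genes and 2.5% of the others.

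The other end of the range was also filled. The first coding intron lay beyond the midpoint of the coding sequence in 18 genes (27.3%), against 14.2% of other genes. This held for 38.9% of the rpl genes with a coding intron and 13.3% of the rps genes. Paralogues are counted separately here: the 4 rps genes are both copies of rps12 and of rps16, and most of the 14 rpl genes are paired copies too. The median number of coding bases before the first coding intron was 117 in rpl and 68 in rps genes. In rpl4101 and rpl4102, 71 of 78 coding bases precede the intron, and in rpl42 (eL42) 300 of 321. Outside the coding sequence there were introns in 2 genes. In rps2202 an intron of 147 bases splits the 5′ UTR, and in rpl39 (eL39) one of 62 bases lies in the 3′ UTR.

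Intron sequences kept closely to a few forms. The first 6 bases were GTAAGT in 50% of the 78 introns and GTATGT in 29.5%, against 27.4% and 19.7% of 5100 introns of other genes. The last 3 bases were TAG in 88.5%, against 68.3%. Upstream of the start codon, the third base before it was A in 87.3% of 126 genes, against 60.5% of 4280 others.

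Paralogues mostly agreed in having an intron and in its place, not in its length. In 22 of the 51 families of 2 neither copy had an intron, in 22 both had the same number, in 6 only 1 copy had any, and in 1 the numbers differed. In 20 of the 23 families with a coding intron in both copies, the first one came after the same number of coding bases. The length was the same in only 2 of the 23, the eL41 genes (52 bases each) and the eS25 genes (50 bases each). The longer was a median of 1.45 times the shorter, at most 4.56 times, in rps1001 (219 bases) and rps1002 (48 bases), and in 8 families at least 2 times.

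**Figure D4:**
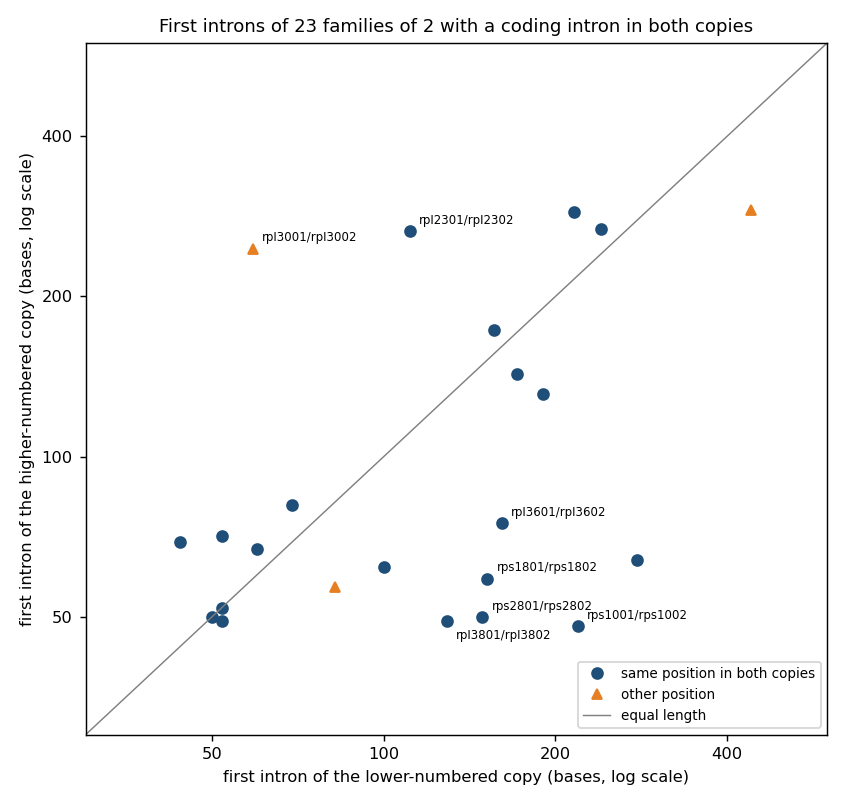
Length in bases of the first intron in the lower-numbered copy (x axis, log scale) and the higher-numbered copy (y axis, log scale) of the 23 families of 2 with a coding intron in both. Blue circles are the 20 families with the same number of coding bases before the intron in both copies, and orange triangles the other 3. In those 3 the number of coding bases after the intron is the same. The grey line marks equal length. In 8 families the lengths differ at least 2 times, and the labels name most of these.

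The 3 families in which these counts differed were rpl30, rpl7 and rps12, which are also among the 5 most divergent proteins. The counts of coding bases before the first intron were 239 in rpl3001 and 263 in rpl3002, 129 in rpl701 and 126 in rpl702, and 381 in rps1201 and 390 in rps1202. The whole coding lengths differed too, at 330 and 354, 756 and 753, and 438 and 447 bases. In each of these families the same number of coding bases followed the intron in both copies. Counted from the end of the coding sequence, its place was thus the same. In rps3001 and rps3002 (eS30) the first intron stood after coding base 39 in both, and rps3002 alone had a second, of 123 bases, after coding base 168.

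In 6 families 1 copy had an intron and the other had none. The copies with it were rpl102 (uL1, 261 bases after coding base 388), rpl1202 (uL11, 95 bases after base 12), rps001 (uS2, 55 bases after base 39), rps901 (uS4, 45 bases after base 15), rps2602 (eS26, 100 bases after base 124) and rps2202 with the 5′ UTR intron. The copies without were rpl101, rpl1201, rps002, rps902, rps2601 and rps2201. The rpl12 genes, which encode the protein at the base of the ribosomal stalk, have the most similar coding sequences of all families of 2. Their UTRs differ, with 58 bases at the 5′ end and 46 at the 3′ end in rpl1201 and 203 and 150 bases in rpl1202. They lie on chromosome III with 63.1 kb between them, encode the same protein and differ at 2 of 498 coding bases. The start of both coding sequences is shown, with the coding bases before the intron position in capitals.
rpl1202 as read from the chromosome (chrIII:627781-627804, minus strand): ATGCCTCCCAAAgtaagtagtttt
rpl1202 with the intron removed: ATGCCTCCCAAAttcgatcccaat
rpl1201 (chrIII:691609-691632, minus strand): ATGCCTCCTAAAttcgatcccaat
Read from the chromosome, rpl1202 leaves the coding sequence after the capitals for an intron that begins gtaagt. With the intron taken out, its next 12 bases are the same as those of rpl1201.

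Single genes had an intron in 13 of 20 cases (65%), and genes with a paralogue in 55 of 111 (49.5%). The families of 3 were uniform in this respect. The uL2 and eS4 genes had no introns, and rpl1601, rpl1602 and rpl1603 each had 1, of 46, 55 and 58 bases, after coding base 41.

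Promoter windows were read from 250 bases before to 50 bases after the RefSeq gene start, on both strands, for 131 ribosomal protein genes and 4971 others. The exact 8-letter HomolD string, CAGTCACG, was found in 29 ribosomal protein promoters (22.1%), beside 1.23% of all 5102 promoters, and in 34 of the others (0.684%). The match nearest to the gene was 44 bases before the start, in rpl3402, and the farthest 124 bases before it, in rpl35. The windows of divergent neighbours overlap, and the matches of rpl35 and rpl902 are 1 and the same site, as are those of rps1602 and rpl13, so the 29 promoters hold 27 sites.

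Most of the other ribosomal protein promoters differed from this string in its last letter alone. Any 7 letters in a row of it were found in 121 promoters (92.4%), beside 5.17% of all promoters, and in 143 others (2.88%). The first 7 letters gave the same 121, against 120 others (2.41%). There were 130 such matches in ribosomal protein promoters, at 125 sites, since 5 sites were read from both genes of a divergent pair. The next letter was A in 88, G in 29, T in 10 and C in 3. The element read forward toward the gene in 84 matches and in reverse in 46. Among rpl genes 93.4% had it and among rps genes 90.9%.

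**Figure D5:**
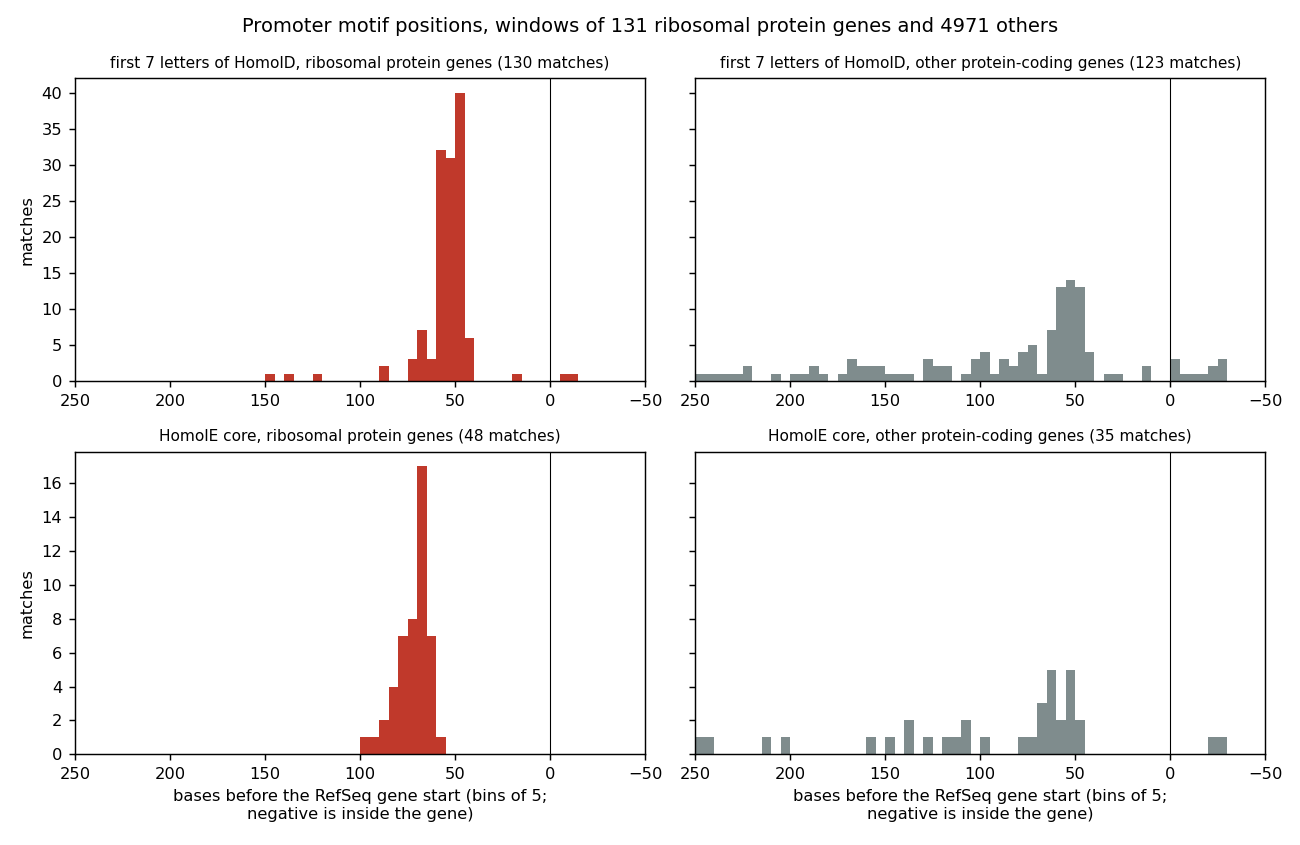
Matches (y axis) by bases before the RefSeq gene start (x axis, bins of 5) for the first 7 letters of HomolD (top) and the HomolE core (bottom), in ribosomal protein promoters (left) and other promoters (right). The HomolD matches of ribosomal protein genes have their median at 51 bases and the HomolE matches at 69 bases before the start.

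Its position was narrow. The matches to the 7 letters began a median of 51 bases before the gene start (quartiles 47 and 56). Of 130 matches 119 (91.5%) fell 40 to 70 bases before it. This band was chosen after these positions were seen, so a high share of them in it was fixed in advance. In other promoters 53 of 123 matches (43.1%) fell in that band, and all 123 had a median of 60 bases (quartiles 49 and 120). RefSeq lists no 5′ UTR for 4 ribosomal protein genes and 590 of 4972 others, so any distance there runs from the start codon. To the start codon the matches in the band had a median distance of 73 bases (quartiles 64.5 and 81). In 43 of 113 genes with such a match and a deposited 5′ UTR (38.1%), the deposited 5′ UTR was long enough to reach over it.

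The HomolE core, CCCTACCC, was found in 47 ribosomal protein promoters (35.9%), beside 1.59% of all promoters, and in 34 others (0.684%). Its matches began a median of 69 bases before the gene start and lay between 59 and 95 bases, upstream of the usual place of HomolD. It was found in 31.6% of rpl and 41.8% of rps promoters. Among the 10 genes without the 7 letters of HomolD, 6 had the HomolE core: rpl31, rpl2501, rps502, rps1202, rps1401 and rps2302. The others were rpl1601, rpl2402, rpl3601 and rps902. No match means only that these letters are not in this window.

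The elements were also counted per family. In 43 of the 51 families of 2 both promoters held the 7 letters and in 8 only 1 did. Exact HomolD was in both copies of 1 family, in 1 copy of 19 and in neither of 31, and the HomolE core in both of 4, in 1 of 28 and in neither of 19. Both elements in exact form occurred in 10 ribosomal protein genes and in 2 others, spt2 and tcb1, whose match to the first 7 letters of HomolD is a site also read from a ribosomal protein gene.

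Among the 120 other genes with the 7 letters, 21 had them at a site that also lies in the window of a ribosomal protein gene, and 99 at a site of their own. Genes of the translation machinery listed beside the ribosomal proteins were found in both groups. The 7 letters were present in 5 of 7 genes of the P-stalk, the acidic proteins that recruit elongation factors: rpp0, rpp102, rpp103, rpp201 and rpp203, at 45 to 73 bases before the start. They were also in 4 of 5 ubiquitin genes, namely ubi1, ubi2, ubi3 and ubi5, whose products fuse ubiquitin to a ribosomal protein. The sites of rpp203 and ubi2 are among the 21 shared with a ribosomal protein gene. The 7 letters were further present in cpc2, whose product sits on the small subunit, and in tef101, tef102, tef103 and tef3 among 7 elongation factor genes. They were in 0 of the 47 genes listed for the mitochondrial ribosome by names beginning with mrp or rsm.

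The listed genes differed in structure too. All 7 P-stalk genes had an intron, with a median RefSeq 5′ UTR of 28 bases. The 5 ubiquitin genes had none, and among the 7 elongation factor genes only tef5 had one. Of the 47 mitochondrial ribosomal protein genes 22 had an intron (46.8%), and their median 5′ UTR was 161 bases as deposited and 101.5 bases in RefSeq, near the medians of all other genes.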

How the data were processed

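The labels list 25 chromatin immunoprecipitation samples, and deepTools 2.5.3, bedtools, SAMtools, Bowtie2 and BWA stand in the submitters' processing notes. The 3 deposited files used hold positions and lengths in bases and no sample values, so depth is not given and no test was made. The sources used here do not say how the authors made the annotation.

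For each gene the first listed transcript was read from the deposited annotation, and UTR lengths exclude introns. Medians of UTRs cover genes that have one. RefSeq ASM294v3, not the build ASM294v2 of the labels, was paired by systematic identifier and used at its own coordinates for sequences. Promoter windows ran from 250 bases before to 50 after the RefSeq gene start. Coding sequences were translated and aligned globally (BLOSUM62, gap open −10, extension −0.5) with Biopython 1.88. Python 3.11.15, numpy 2.4.6 and matplotlib 3.10.9 were used. The reader was tested on simulated data and recovered 400 of 400 genes.

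The members and lists were chosen with earlier results of these data known. Ubiquitin and elongation factor genes were also found by their RefSeq symbols. Genes were named by rule: stems of 3 or more, copies differing in introns, the 5 extremes of each length, introns within 6 coding bases or outside the coding sequence, 3 or more introns, pairs within 2 kb, genes nearest centromeres and ends, snoRNA hosts, the 5 least alike pairs, identical pairs and extreme HomolD positions. The 7-letter details, the list of genes without them, genes with 2 introns, single genes, rps3 and rpl42 were added after values were seen. Results for some genes and a promoter stretch that this rule covers are not reported here.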

Additional observations from a re-analysis of the deposited data

How the results depend on the processing

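No paired analysis was possible because no value of a sample was used and no result comes from a test. Of 41 alternatives, 32 left the value within the 95% interval of the one reported, or a count within 1.5 times of it, and these intervals are wide. The median 5′ UTR became 19 bases in RefSeq, and the median gene length 686 bases in RefSeq and 450 bases for coding sequence alone. The share of other genes with an intron became 52.3% over genes of like coding length and likewise over named genes. The share of promoters with HomolD became 92.4% for any 7 letters, 94.7% for any 6 letters (chosen after seeing the data; 16.7% of others) and 13% on the forward strand alone. Median identity of paralogues became 87.9% over codon bases, also chosen after seeing the data. Leaving out 1 chromosome moved the intron share between 45.8% and 57.5% and the median coding bases before the first intron between 68 and 109. The 109 came without IIc, beside 114 in other genes. Over all coding introns this median was 98. The share with a paralogue was 84.7% by protein identity. Annotated ends limit all UTR and promoter distances: the 2 annotations placed most 5′ ends differently, and which lies nearer to the transcript start was not tested.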

Other observations

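The letters TATAAA, the core of the TATA box, stood in the 250 bases before the RefSeq gene start, on the strand of the gene, in 20 of 131 ribosomal protein promoters (15.3%) and in 1391 of 4971 others (28%). Within the last 60 bases before the start they were in 0 of the ribosomal protein promoters and in 338 of the others (6.8%). This search was added after the other values were seen. The stretch of 60 bases is the one in which most of the ribosomal protein genes hold the first 7 letters of HomolD, which take up part of it, and the share this alone would give was not tested.

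Coding introns of the ribosomal protein genes fell between codons in 40 of 76 cases (52.6%), against 2063 of 4985 (41.4%) in other genes. The 40 include the 11 introns described above that follow the first or second codon. The share without these was not worked out. They fell after the first base of a codon in 23.7%, against 32.7%, and after the second in 23.7%, against 25.9%. The first transcribed base in RefSeq was A in 66.1% of 127 ribosomal protein genes and in 71% of 4382 others. It was C or T in 4.72% and 4.43%.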
